A study of Homo sapiens with 28 samples.

Results

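The contrast described here is the effect of SNX631 minus the effect of Senexin B in LNCaP cells without added androgen. LNCaP is an established line of human prostate cancer cells whose growth responds to androgen. Total RNA was sequenced from cells kept for 72 h in charcoal-stripped serum, from which steroids are removed, and then treated in such medium. In the first experiment, cells received 0.1% DMSO as vehicle or Senexin B at 1 µM for 24 h, with 3 libraries per group. In the second, they received 0.1% DMSO or SNX631 at 500 nM for 72 h, with 4 libraries per group. The contrast uses all 14 of these libraries, of 28 in the series, in 1 fit. Each inhibitor was set against the vehicle libraries of its own experiment, and the Senexin B effect was then subtracted from the SNX631 effect. The remaining 14 libraries had the synthetic androgen R1881 in every group, at 0.1 nM in the first experiment and 1 nM in the second, and were used only to measure the same contrast again. All doses given here were taken from the labels. The text of the study states another one for Senexin B. The compounds are chemically unrelated per the study, and inhibitor, dose, time and experiment changed together, so they cannot be told apart in any value below.

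CDK8 and CDK19 are paralogous kinases, and either of them binds cyclin C, MED12 and MED13 to form the Mediator kinase module. The module docks reversibly on Mediator, the complex that links enhancer-bound transcription factors to RNA polymerase II. Its kinases phosphorylate transcription factors and other regulators, so inhibition can raise some genes and lower others. Senexin B and SNX631 both inhibit CDK8 and CDK19.

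The total count was between 10219140 and 13695671 in every library of the contrast except replicate 3 of the 24 h vehicle, which held 33809419 counts. The 10 most abundant genes took 4.46 to 5.45% of a library. The 18 replicate pairs were each further apart than sampling noise, and the study describes its replicates as biological, without saying whether they were separate cultures or days. All 10 luminal prostate and LNCaP markers examined were present, with a summed level of 4600 to 6190 CPM. This unit relates the count of a gene to the total of its library, which was TMM-scaled except for the marker levels in this paragraph. Of the markers of other cell types, 4 of 5 for basal epithelium, 4 of 5 for endothelium, 5 of 6 for leukocytes, 5 of 6 for neuroendocrine cells and 2 of 7 for fibroblasts and stroma stayed under 1 CPM in all libraries. The 4 groups without R1881 had a common spread between replicates beyond counting error, as a coefficient of variation, of 2.23% over the 16247 genes tested.

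The inhibitors differed on few genes. Of the genes called for the difference, 14 of the 59 with a higher SNX631 effect belonged to the list of cell cycle and DNA replication genes, and 2 of the 21 with a lower one, the amino acid transporter genes SLC7A11 and SLC7A5, to the list of ATF4 and unfolded protein response genes. A gene was called when its log2 difference had a false discovery rate (FDR) under 0.01 in the quasi-likelihood test of edgeR and a size over 1.5-fold, the limits of the study. By this rule 59 genes were called higher, meaning a higher SNX631 effect (0.363% of the genes tested), and 21 were called lower (0.129%). At an FDR under 0.05 with no limit on size, 465 genes were higher (2.86%) and 443 were lower (2.73%). The median difference over all genes was -0.0032 on the log2 scale, and 94.6% of genes lay within 1.5-fold of no difference. No gene passed an FDR of 0.05 when edgeR tested whether its difference exceeded 1.5-fold, and 136 genes had an unadjusted p under 0.05 in that test. The sizes given below are therefore estimates around a limit, not lower bounds. The count of higher genes varied between fits that left out a library. Without replicate 3 of the 24 h vehicle, the deepest library, 36 genes were called higher and 19 lower. Higher genes numbered 43 without replicate 1 of the Senexin B group and 44 without replicate 2 of the 24 h vehicle. They numbered 61 without replicate 4 of the SNX631 group. With all libraries thinned to the smallest total, an alternative chosen after seeing the data, 29 were called higher and 22 lower.

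**Figure D1:**
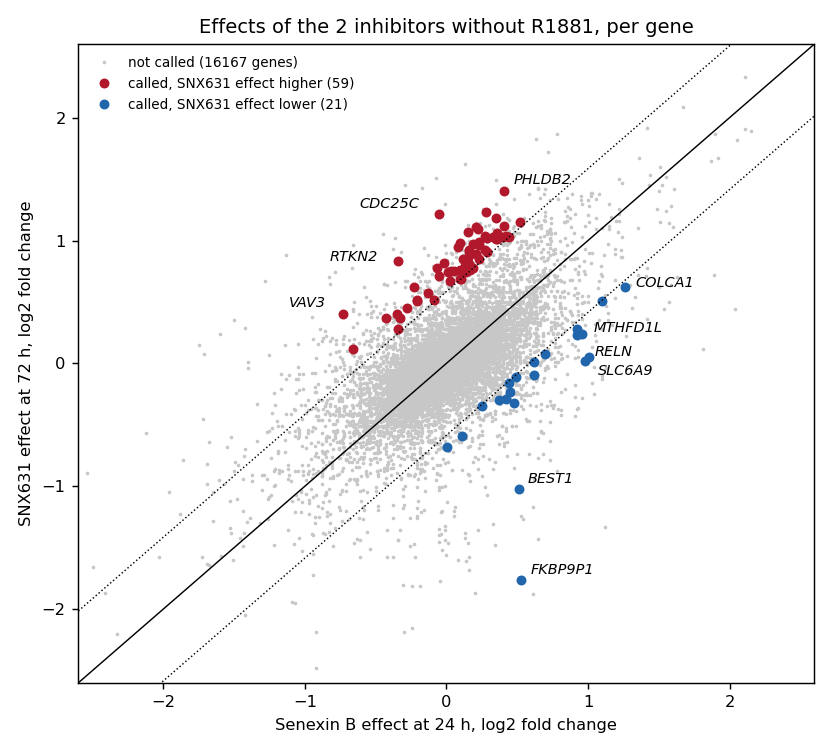
Each point is a gene, with the log2 fold change under Senexin B at 24 h on the x axis and under SNX631 at 72 h on the y axis, both against the vehicle of the same experiment and without R1881. Red points are the 59 genes called higher and blue points the 21 called lower for the difference, the solid line marks equal effects, the dotted lines mark a 1.5-fold difference, and 9 genes lie outside the axes.

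SNX631 alone changed 783 genes against its vehicle, 456 of them upward (2.81%), and Senexin B changed 626, of which 337 were upward (2.07%). Both inhibitors changed 306 genes in the same direction and none in opposite directions at these limits. At an FDR under 0.05, 3879 genes moved the same way and 38 moved opposite ways under the 2 inhibitors. A further 477 genes passed the limits for SNX631 and not for Senexin B, and 320 for Senexin B and not for SNX631, yet the difference itself was called for only 52 of the former and 11 of the latter. Of the 59 higher genes, 48 rose under SNX631 and were not called for Senexin B, 2 fell under Senexin B and were not called for SNX631, and 9 were called for neither. Of the 21 lower genes, 9 rose under Senexin B only by these calls, 4 fell under SNX631 only, 7 were called for neither, and 1, COLCA1, rose under both.

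The list of cell cycle and DNA replication genes had the largest median difference of the 16 lists. Of its 60 genes, all tested, 14 were called higher (against 0.363% of all genes) and none lower, 34 were higher at an FDR under 0.05 and 56 had a difference above 0. Its median difference was 0.43, beside -0.0032 for all genes. The median effect was 0.86 under SNX631, with 51 members called up, and 0.34 under Senexin B, with 11 called up and 1 down. Both inhibitors thus raised genes of this list, and SNX631 raised more of them past the limits. Without replicate 3 of the 24 h vehicle, 6 members were called, 24 were higher at an FDR under 0.05 and the median was 0.44. In the thinned libraries these values were 3, 25 and 0.4. The level in vehicle also differed between the experiments. The summed level of the list was 1120 to 1180 CPM in the 24 h vehicle, 1340 to 1440 CPM under Senexin B, 1830 to 1920 CPM in the 72 h vehicle and 2980 to 3220 CPM under SNX631. Of the 59 genes called higher, 54 had a higher mean in the 72 h than in the 24 h vehicle, beside 51.1% of all genes tested, and the part of this vehicle level in the difference was not tested.

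MKI67, which encodes the proliferation antigen Ki-67, was at 8.62, 8.58 and 10.2 CPM in the 24 h vehicle and 12.3, 12.3 and 13.5 CPM under Senexin B. It was at 31.6, 32.4, 34.9 and 35.8 CPM in the 72 h vehicle and 66.5, 71.1, 74.5 and 63.8 CPM under SNX631. No vehicle library overlapped its treated group, and the 72 h vehicle lay above the 24 h Senexin B group. The log2 effects were 1.04 under SNX631 and 0.42 under Senexin B, and the difference was 0.62 ± 0.11 (SE, edgeR FDR 0.000437). Its call was lost without replicate 3 of the 24 h vehicle, without replicate 3 of the SNX631 group, with all 28 libraries in the fit, with the replicate number as a block and after thinning, with values of 0.47 to 0.62. CCNA2, the cyclin A2 gene needed for S phase and entry into mitosis, was at 3.82 to 5.18 CPM in the 24 h vehicle and 4.62 to 6.89 CPM under Senexin B, with overlap. At 72 h it was at 11.8 to 14.5 CPM in vehicle and 24.1 to 29.5 CPM under SNX631, without overlap. Its difference was 0.77 ± 0.18 (edgeR FDR 0.00496).

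CDC25C, a phosphatase that activates CDK1 at mitotic entry, had the highest difference of all genes named by the rule. It was at 0.882, 1.63 and 1.43 CPM in the 24 h vehicle and 1.08, 1.13 and 1.75 CPM under Senexin B, which overlap. The 72 h vehicle held 2.94, 4.14, 2.8 and 2.55 CPM and the SNX631 libraries 7.24, 6.75, 7.85 and 7.32 CPM. The difference was 1.27, with a 95% interval of 0.67 to 1.87 (edgeR FDR 0.00741). Its call was lost in 10 of 14 fits that left out a library and in 4 of 8 other settings. By contrast, TPX2, a spindle assembly factor that activates Aurora A, and PBK, a mitotic kinase that is not in the list, kept their calls in each alternative fit at these limits. TPX2 was at 12.8 to 14.4 CPM in the 24 h vehicle, 14.9 to 16.8 CPM under Senexin B, 36.7 to 42.6 CPM in the 72 h vehicle and 66.8 to 78.2 CPM under SNX631. Its difference was 0.68 ± 0.10 (edgeR FDR 2.93e-05). For PBK the SNX631 libraries held 31.1 to 36.8 CPM against 13.1 to 17.8 CPM in vehicle, while Senexin B and its vehicle overlapped at 4.81 to 6.55 CPM, and the difference was 0.92 ± 0.16 (edgeR FDR 0.000192).

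**Figure D2:**
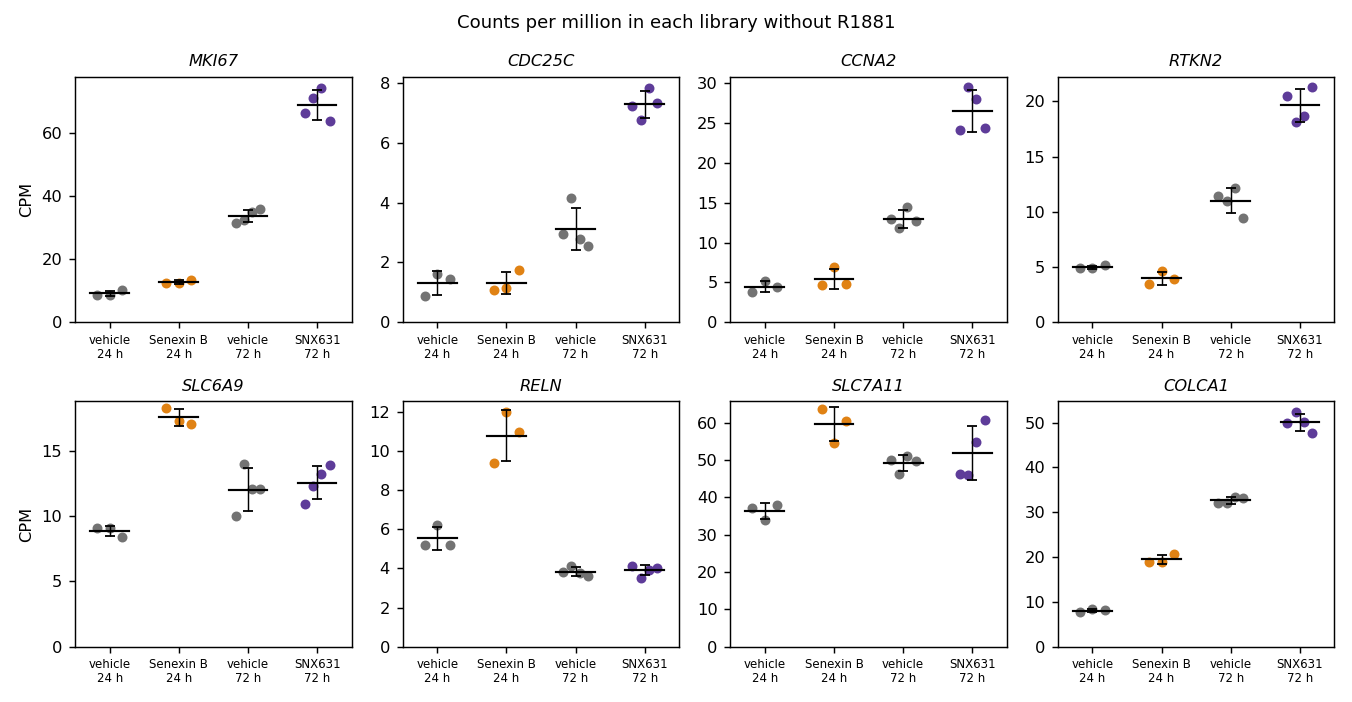
Level (CPM) in each library without R1881, for 4 genes called higher (top row) and 4 called lower (bottom row) for the difference. Points are libraries, horizontal bars are group means and error bars are the SD of 3 libraries at 24 h or 4 at 72 h. MKI67, CDC25C and CCNA2 rose under SNX631 at 72 h from a vehicle level that was already above the 24 h groups, while SLC6A9 and RELN moved only under Senexin B.

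Other called members of the list were CDKN2C, BUB1, KIF11, FOXM1, CCNB2, GINS2, TK1, TYMS and AURKA, with differences from 0.59 to 0.77. They span DNA precursor synthesis (TK1, TYMS), assembly of the replicative helicase (GINS2), the transcription factor of the G2/M programme (FOXM1), a cyclin of mitosis (CCNB2), mitotic kinases (BUB1, AURKA) and a spindle motor (KIF11). TYMS, thymidylate synthase, rose from 28.8 to 31.0 CPM in the 72 h vehicle to 57.3 to 66.3 CPM under SNX631, and was at 12.0 to 14.5 and 16.8 to 18.2 CPM in the 24 h vehicle and Senexin B groups. Its difference was 0.70 ± 0.10 (edgeR FDR 1.19e-05). CDKN2C, which encodes the CDK4 and CDK6 inhibitor p18, was the exception in kind. It fell under Senexin B (log2 effect -0.66, edgeR FDR 0.000168), from 6.37 to 7.39 CPM to 3.67 to 5.5 CPM, and its effect under SNX631 was 0.12 (edgeR FDR 0.415). Of the members named here, GINS2 lost its call in 12, BUB1 in 11, CCNA2 and FOXM1 in 6, CDKN2C and TK1 in 4, and AURKA and CCNB2 in 2 of the 14 fits without a library, and no difference of these genes changed sign.

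Some members had similar effects under both inhibitors. The following were chosen after their values were seen. CDC6, which loads the replicative helicase, rose under both inhibitors, with log2 effects of 1.18 under SNX631 and 1.06 under Senexin B. Its difference was 0.13, with an interval of -0.13 to 0.39. MCM2, a helicase subunit, had effects of 0.91 and 0.81 and a difference of 0.11 (interval -0.022 to 0.23). UHRF1, which maintains DNA methylation at replication forks, had effects of 1.03 and 0.96 and a difference of 0.069 (interval -0.24 to 0.38). The intervals of CDC6, MCM2 and UHRF1 all lie inside 1.5-fold. CDK1, the kinase of mitosis, differed between the inhibitors, with effects of 1.36 and 0.95 and a difference of 0.41 ± 0.053 (edgeR FDR 1.74e-06) that stayed within 1.5-fold.

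Cell cycle promoters often carry a CHR element (searched here as TTTGAA or TTCGAA), which binds the DREAM and MuvB complexes, together with CCAAT boxes, which bind NF-Y. Promoter windows of 250 bases before to 50 after a start site, from RefSeq on GRCh38.p14, were searched on both strands. A window was found for 45 of the 59 higher genes. Of these, 19 held a CHR word (42.2%) and 29 a CCAAT box (64.4%) in at least 1 of their windows. Counted in the same way, the shares were 14.9% and 43.3% among the 11018 tested genes with a window and 19.5% and 39.7% among all 27305 genes of the table. Among the 17 lower genes with a window, 4 held a CHR word (23.5%) and 5 a CCAAT box (29.4%). In the list of ATF4 and unfolded protein response genes the shares were 10.7% and 78.6%, so CCAAT boxes were not particular to the higher genes. In the cell cycle list 33.3% of the 48 genes with a window held a CHR word and 81.2% a CCAAT box. Words of E2F sites (TTTGGCGC, TTTCCCGC, TTTCGCGC or TTTGCCGC) were searched as well. They were found in 7 of the 45 higher genes (15.6%) and 0 of the 17 lower genes. The share was 6.59% among tested genes and 37.5% in the cell cycle list. These shares are descriptions, and a match is not a site. CDC25C and MKI67 are shown because each window holds a CHR word and a CCAAT box, in capitals. The genes stand for the division genes that were higher. The CDC25C window is chr5:138331755-138332054 on the minus strand and that of MKI67 is chr10:128126374-128126673 on the minus strand. In MKI67 the last CHR word overlaps the last CCAAT box.
CDC25C: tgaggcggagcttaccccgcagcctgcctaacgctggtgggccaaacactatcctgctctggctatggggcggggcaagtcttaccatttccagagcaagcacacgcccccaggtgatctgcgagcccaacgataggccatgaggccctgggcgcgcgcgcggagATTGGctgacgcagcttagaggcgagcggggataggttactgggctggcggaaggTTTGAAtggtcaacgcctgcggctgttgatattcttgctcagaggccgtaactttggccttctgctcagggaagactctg
MKI67: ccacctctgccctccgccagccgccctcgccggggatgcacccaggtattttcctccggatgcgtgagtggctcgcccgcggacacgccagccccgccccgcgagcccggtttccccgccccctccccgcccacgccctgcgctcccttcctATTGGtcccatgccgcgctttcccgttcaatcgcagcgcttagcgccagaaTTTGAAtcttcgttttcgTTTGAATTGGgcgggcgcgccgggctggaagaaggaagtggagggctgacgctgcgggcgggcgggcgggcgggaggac

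Outside that list, the highest differences among named genes belonged to RTKN2, VAV3, PHLDB2, IQGAP3, PBK (described above), DIAPH3 and DLGAP5, several of which act in the cytoskeleton or the spindle. RTKN2 was at 4.9, 4.88 and 5.14 CPM in the 24 h vehicle and 3.47, 4.63 and 3.9 CPM under Senexin B. At 72 h it was at 11.4, 11.0, 12.2 and 9.48 CPM in vehicle and 20.5, 18.1, 18.7 and 21.3 CPM under SNX631. The treated libraries were lower than vehicle at 24 h and higher at 72 h, without overlap at either time. Its difference of 1.17 ± 0.17 (edgeR FDR 8.51e-06) kept its call in each alternative fit at these limits. VAV3 fell under Senexin B from 3.33 to 3.62 CPM to 1.57 to 2.63 CPM. Under SNX631 it was at 2.37 to 3.06 CPM against 1.56 to 2.55 CPM in vehicle, with overlap, and its difference was 1.13 ± 0.27 (edgeR FDR 0.00783). PHLDB2, a protein of cell adhesion sites, was at 5.65 to 8.31 CPM under SNX631 against 1.75 to 3.15 CPM in vehicle, and its difference was 0.99 ± 0.24 (edgeR FDR 0.00803). VAV3 lost its call in 10 and PHLDB2 in 8 of 14 fits without a library. Under the 8 other settings VAV3 lost it in 4 and PHLDB2 in 2. IQGAP3, DIAPH3 and DLGAP5 had differences of 0.96, 0.90 and 0.89 and rose under SNX631 with effects of 1.23, 1.11 and 0.98. IQGAP3 and DLGAP5 lost their calls without replicate 3 of the 24 h vehicle, and DIAPH3 in 5 of the 14 fits. SYT4, a synaptotagmin of the list of neuroendocrine and neural genes, had a difference of 0.59 ± 0.14 (edgeR FDR 0.00828) and was the only called gene of the 12 tested in that list. It rose under both inhibitors, to 33.4 to 37.8 CPM from 24.9 to 30.9 CPM under Senexin B and to 9.41 to 14.1 CPM from 5.5 to 7.01 CPM under SNX631. Its call was lost in 9 of the 14 fits.

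The list of ATF4 and unfolded protein response genes lay on the other side. ATF4 is the transcription factor made when translation initiation is restrained under amino acid or endoplasmic reticulum stress, and it raises genes of amino acid uptake and synthesis. Of the 30 genes, all tested, 2 were called lower (against 0.129% of all genes) and none higher, 17 were lower at an FDR under 0.05 and 29 had a difference below 0. The median difference was -0.25. The median effect was 0.26 under Senexin B, with 7 members called up and none down, and 0.011 under SNX631, with 2 called down and none up. Without replicate 3 of the 24 h vehicle, 15 members were lower at an FDR under 0.05 with a median of -0.25. The members did not move as 1 block. The summed level of the list, which abundant chaperones dominate, was 4650 to 4760 CPM in the 24 h vehicle and 4580 to 4660 CPM under Senexin B, and it went from 6050 to 6270 CPM in the 72 h vehicle to 4810 to 5070 CPM under SNX631.

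**Figure D3:**
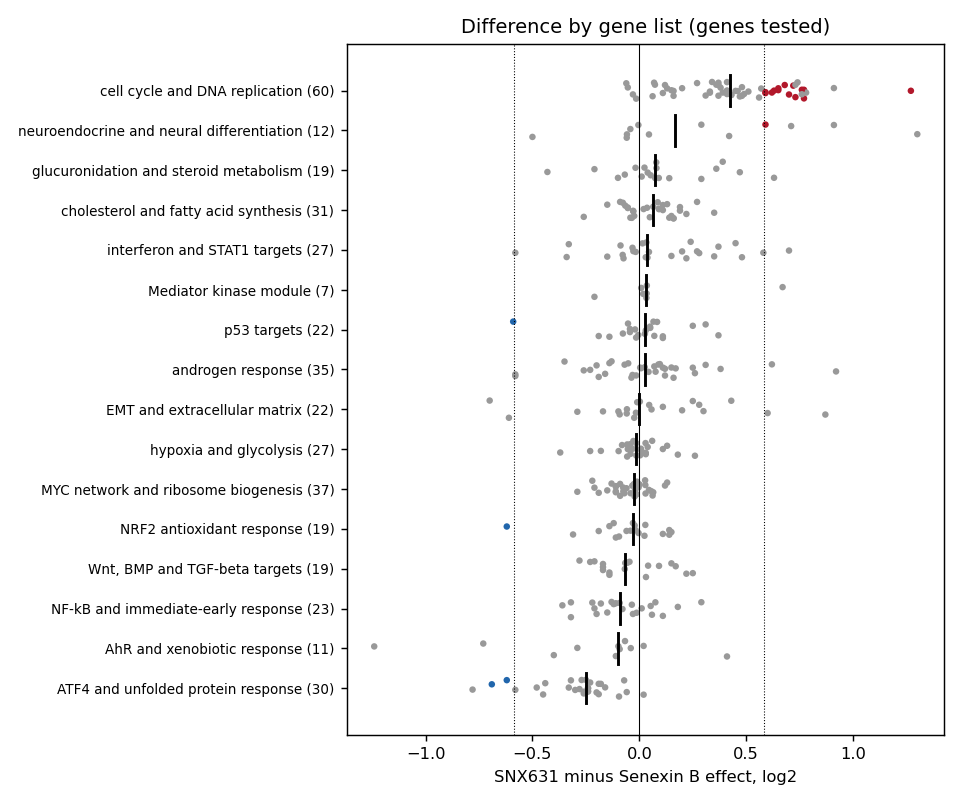
Log2 difference between the SNX631 effect and the Senexin B effect without R1881, for the tested genes of 16 lists (number of rows in brackets). Each point is a gene, red and blue points are called higher and lower, black bars are list medians and dotted lines mark 1.5-fold. The median of the cell cycle list lies at 0.43 and that of the ATF4 list at -0.25, and the medians of the other lists lie between -0.098 and 0.17.

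SLC7A11, the cystine transporter of system xc-, was at 37.3, 33.9 and 38 CPM in the 24 h vehicle and rose to 63.8, 54.7 and 60.4 CPM under Senexin B. In the 72 h vehicle it was at 50.0, 46.3, 51.2 and 49.7 CPM and under SNX631 at 46.4, 45.9, 54.9 and 60.9 CPM. The groups were apart at 24 h and overlapped at 72 h, and the difference was -0.62 ± 0.093 (edgeR FDR 1.84e-05), with the call lost in 4 of 14 fits without a library. SLC7A5, the large neutral amino acid transporter LAT1, was at 4.95 to 6.06 CPM in the 24 h vehicle, 9.72 to 12.4 CPM under Senexin B, 8.56 to 11.7 CPM in the 72 h vehicle and 12.2 to 12.9 CPM under SNX631. Its difference was -0.69 ± 0.15 (edgeR FDR 0.00271), and it was not called without replicate 2 of the Senexin B group. The 72 h vehicle of SLC7A5 lay at about the level of the 24 h Senexin B group.

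Other members were chosen after their values were seen. ATF4 itself was at 251, 259 and 255 CPM in the 24 h vehicle and 366, 363 and 354 CPM under Senexin B. It was at 299, 310, 296 and 300 CPM in the 72 h vehicle and 297, 319, 307 and 328 CPM under SNX631. Its difference was -0.45, with an interval of -0.53 to -0.37 (edgeR FDR 1.9e-09), so it passed the FDR limit and not the limit on size. DDIT3, the stress factor CHOP, and STC2, a secreted glycoprotein, had differences of -0.58 and -0.48 (edgeR FDR 0.00236 and 9.82e-05). The endoplasmic reticulum chaperone HSPA5 (BiP) fell under both inhibitors, with effects of -0.86 under SNX631 and -0.42 under Senexin B, and its difference was -0.44 (edgeR FDR 9.38e-10). HSP90B1, another such chaperone, had effects of -0.69 and -0.44 and a difference of -0.24 (edgeR FDR 1.67e-05). At an FDR under 0.05, 17 members rose and 5 fell under Senexin B, and 11 rose and 8 fell under SNX631. Of all 16247 genes tested, 3224 rose and 2902 fell under Senexin B, and 3102 rose and 2890 fell under SNX631. The share of members that fell under Senexin B was near that of all genes. PHGDH, the first enzyme of serine synthesis, rose by 0.35 and 0.33 and was the member with a difference above 0, at 0.02 (interval -0.054 to 0.094).

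SLC6A9 encodes the glycine transporter GlyT1 and is in none of the lists. It was at 9.11, 9.09 and 8.41 CPM in the 24 h vehicle and 18.3, 17.3 and 17.1 CPM under Senexin B. It was at 9.98, 14, 12.1 and 12.1 CPM in the 72 h vehicle and 10.9, 12.3, 13.2 and 13.9 CPM under SNX631. The Senexin B libraries were the highest of all 14 and the SNX631 libraries overlapped their vehicle. The difference was -0.96 ± 0.13 (edgeR FDR 5.17e-06). MTHFD1L, the mitochondrial enzyme that releases formate in folate metabolism, was at 10.8 to 11.1 CPM in the 24 h vehicle and 21.1 to 21.7 CPM under Senexin B, and at 14.7 to 17.1 CPM in the 72 h vehicle and 17.4 to 20.4 CPM under SNX631. The effects were 0.96 and 0.24 and the difference was -0.73 ± 0.10 (edgeR FDR 1.19e-05). SLC6A9 and MTHFD1L kept their calls in each alternative fit at these limits.

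ATF4 and its partners bind CARE elements, searched here as TGATGNAA on both strands. A window was found for 17 of the 21 lower genes, and 1 of them, MTHFD1L, held the word (5.88%), beside 2.57% of tested genes with a window and 4.46% of all genes of the table. Of the 45 higher genes with a window, 2 held it (4.44%), among them CDC25C, in a window other than that shown above. The word was thus not particular to the lower genes. In the ATF4 list 5 of 28 genes with a window held it (17.9%). The MTHFD1L window, chr6:150866083-150866382 on the plus strand of GRCh38.p14, is shown because it carries the CARE word and a CCAAT box, in capitals.
MTHFD1L: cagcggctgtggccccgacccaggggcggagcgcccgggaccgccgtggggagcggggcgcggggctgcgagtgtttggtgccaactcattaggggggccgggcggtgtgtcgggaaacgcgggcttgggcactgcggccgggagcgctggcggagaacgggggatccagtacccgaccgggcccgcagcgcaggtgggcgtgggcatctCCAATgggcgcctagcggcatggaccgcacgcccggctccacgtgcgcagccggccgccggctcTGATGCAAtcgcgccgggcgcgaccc

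RELN, which encodes the secreted glycoprotein reelin, was at 5.19, 6.21 and 5.2 CPM in the 24 h vehicle and 9.4, 12.0 and 11.0 CPM under Senexin B. It was at 3.83, 4.14, 3.77 and 3.59 CPM in the 72 h vehicle and 4.11, 3.53, 3.93 and 4.01 CPM under SNX631. It rose under Senexin B only by its calls, and the difference was -0.96 ± 0.18 (edgeR FDR 0.000711). BHLHA15 (MIST1), a transcription factor of secretory cells, was at 16.9 to 18.2 CPM in the 24 h vehicle and 26.1 to 29.3 CPM under Senexin B, while the 72 h groups overlapped at 12.4 to 16.0 CPM. Its difference was -0.72 ± 0.11 (edgeR FDR 1.60e-05). GDF15, a stress-induced cytokine and a p53 target, was the called gene of the 22 tested in the p53 list. It rose under both inhibitors, from 15.2 to 16.9 CPM to 32.1 to 36.5 CPM under Senexin B and from 24.5 to 26.0 CPM to 32.0 to 42.4 CPM under SNX631. The difference was -0.59 ± 0.10 (edgeR FDR 0.000225). Its call was lost in 5 of 14 fits without a library and in 4 of 8 other settings. COLCA1 rose under both inhibitors past the limits and by more under Senexin B. It was at 7.64, 8.43 and 8.11 CPM in the 24 h vehicle and 18.9, 18.9 and 20.6 CPM under Senexin B, and at 32.1, 32.0, 33.5 and 33.1 CPM in the 72 h vehicle and 50.0, 52.5, 50.1 and 47.8 CPM under SNX631. Its effects were 1.26 and 0.62 and the difference was -0.65 ± 0.094 (edgeR FDR 1.36e-05). COLCA1 lies antisense to COLCA2, with 436 shared exon bases, and COLCA2 held at most 1.58 CPM as a group mean.

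The lowest differences of all belonged to genes with weak or uncertain counts. FKBP9P1 is a transcribed pseudogene of FKBP9 at 0.174 to 1.75 CPM, with a difference of -2.30 (interval -3.37 to -1.22, edgeR FDR 0.00719), and its call was lost in 11 of 14 fits without a library. BEST1, a chloride channel gene, shares 1267 exon bases with FTH1 on the other strand, and FTH1 was at 1620 to 1820 CPM as a group mean. BEST1 was at 17.7, 8.5 and 9.6 CPM in the 24 h vehicle, 19.4, 13 and 14 CPM under Senexin B, 23.7, 13.5, 35.7 and 19.4 CPM in the 72 h vehicle and 7.06, 6.28, 13.7 and 18.1 CPM under SNX631. Treated and vehicle libraries overlapped at both times. Its difference was -1.53 ± 0.34 (edgeR FDR 0.00309). The call was lost without replicate 1 of the Senexin B group or replicate 3 of the 24 h vehicle. It was also lost with DESeq2 as the test (value -1.41, DESeq2 Wald FDR 0.205). The use of strand in counting is not given in the sources used here. In GENCODE 29, 36 of the 80 called genes share exon bases with a gene of the other strand and 9 with a gene of the same strand. The share over all genes tested was not counted, so these counts do not set the called genes apart.

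A few genes moved in opposite directions under the inhibitors at an FDR under 0.05. PLPP3, a lipid phosphatase, was at 6.86 to 7.84 CPM in the 24 h vehicle and 9.01 to 11.4 CPM under Senexin B, and at 5.1 to 6.71 CPM in the 72 h vehicle and 4.32 to 5.45 CPM under SNX631. Its effects were 0.48 under Senexin B and -0.32 under SNX631, the latter with an edgeR FDR of 0.0446 and overlapping groups. The difference was -0.80 ± 0.17 (edgeR FDR 0.00174), and its call was lost after thinning. GEN1, a nuclease that resolves recombination junctions, was at 12.1 to 13.6 CPM in the 24 h vehicle and 9.4 to 10.9 CPM under Senexin B, and at 16.8 to 18.4 CPM in the 72 h vehicle and 20.6 to 25.4 CPM under SNX631. Its effects were -0.35 and 0.40, its groups did not overlap at either time, and its difference was 0.75 ± 0.12 (edgeR FDR 5.04e-05). ZNF726 and DONSON, a replication fork factor, had differences of 0.80 and 0.87 by the same pattern. ZNF726 lost its call in 9 of 14 fits without a library, and DONSON did not pass the FDR limit for a call.

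For many shared responses the inhibitors could be bounded as close. Of the 306 genes changed the same way by both, 146 (47.7%) had a difference whose 95% interval lay within 1.5-fold. The 5 with the tightest bounds were MAP1B, ABHD10, USP25, VGLL4 and GMPS. MAP1B, a microtubule-associated protein, was at 1020, 1030 and 1030 CPM in the 24 h vehicle and 2310, 2160 and 2150 CPM under Senexin B. It was at 574, 557, 631 and 615 CPM in the 72 h vehicle and 1310, 1210, 1310 and 1250 CPM under SNX631. Both effects were 1.10, and the difference was -0.0063 with an interval of -0.094 to 0.081, although the levels in the 2 experiments were apart. GMPS, an enzyme of guanine nucleotide synthesis, had effects of 0.61 and 0.60 and a difference of 0.0095 (interval -0.082 to 0.10). These 5 genes were chosen for a small bound, so values near 0 follow from the choice. In the R1881 libraries their differences were -0.22 for MAP1B, -0.013 for ABHD10, 0.046 for USP25, -0.14 for VGLL4 and 0.028 for GMPS. The edgeR FDR was 0.0974 for MAP1B and 0.0507 for VGLL4 there, and higher for the others.

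None of the 7 Mediator kinase module genes was called for the difference, and none passed an FDR of 0.05. CDK19 rose a little under both inhibitors, from 310 to 317 CPM to 345 to 352 CPM under Senexin B and from 276 to 282 CPM to 311 to 327 CPM under SNX631. Its difference was 0.034 (interval -0.036 to 0.10). CDK8 was at 48.4 to 54.1 CPM in the 24 h vehicle, 64.9 to 68.0 CPM under Senexin B, 42.6 to 48.8 CPM in the 72 h vehicle and 47.4 to 56.9 CPM under SNX631. Its effects were 0.36 and 0.15 and the interval of its difference was -0.35 to -0.065, which the adjustment over all genes did not pass. The intervals of CCNC, MED12, MED13 and MED13L lay between -0.11 and 0.15. MED12L, at 3.3 to 7.25 CPM, fell under Senexin B and had a difference of 0.67 (interval 0.24 to 1.10).

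In the other lists no member was called beyond those named above. At an FDR under 0.05, where 2.86% of all genes were higher and 2.73% lower, the cholesterol and fatty acid list had 5 of 31 members higher and none lower, among them INSIG1 and HMGCS1, feedback and synthesis genes of the sterol pathway, with differences of 0.35 and 0.27. The androgen response list had 3 rows higher and 5 lower of 35 for 34 genes, with a median difference of 0.025. In the list of MYC and ribosome biogenesis genes 4 of 37 were lower and none higher, with a median difference of -0.026 and median effects of 0.21 under SNX631 and 0.26 under Senexin B. The lists of AhR and xenobiotic response (11 tested) and of NF-kB and immediate-early genes (23 tested) had no member past an FDR of 0.05. The remaining lists had at most 5 such members.

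The contrast was then measured in the 14 R1881 libraries, which are different libraries of the same 2 experiments and differ in R1881 dose as well. There 9 genes were called higher and 19 lower of 15656 tested, and at an FDR under 0.05 465 were higher (2.97%) and 350 lower (2.24%). Of the 59 genes called higher without R1881, 58 were tested, 56 had the same sign, and 37 were higher at an FDR under 0.05, with none opposite. Their median difference was 0.72 without and 0.37 with R1881, and 1 was called, the kinetochore gene KNL1. Of the 21 lower genes, 20 were tested, 15 had the same sign, 4 were lower at an FDR under 0.05 and none was opposite. Their median was -0.68 without and -0.18 with R1881, and 3 were called, namely RELN, COLCA1 and GDF15. In the cell cycle list 37 of 60 members were higher at an FDR under 0.05 and the median was 0.33. In the ATF4 list 4 members were higher and 8 lower, and the median was -0.037. The called genes were chosen by limits on their values without R1881, so their smaller medians with R1881 do not by themselves measure a weaker difference.

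**Figure D4:**
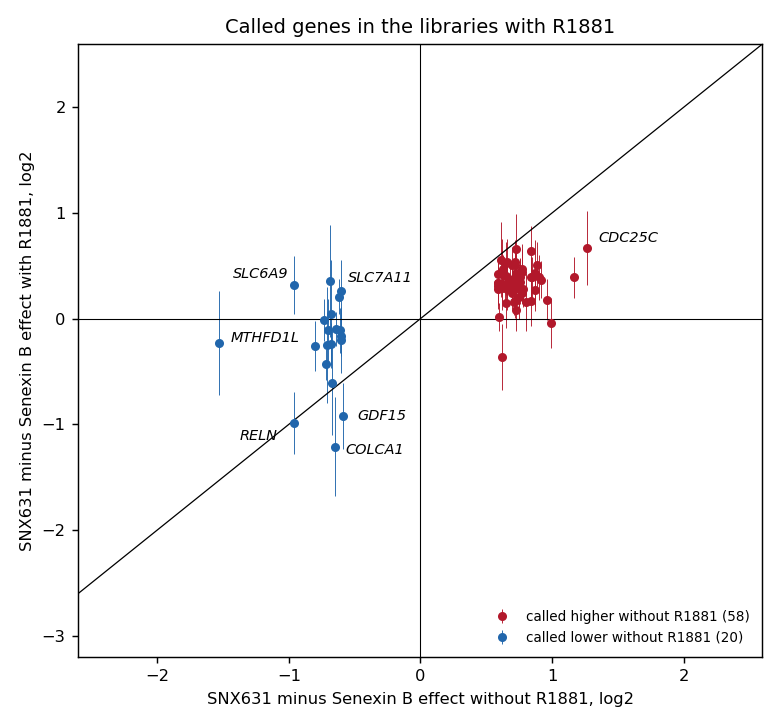
Log2 difference between the SNX631 and Senexin B effects without R1881 (x axis) and with R1881 (y axis), for the called genes tested in both. Error bars are the 95% interval of the value with R1881, and the diagonal marks equal values. All but 2 of the 58 genes called higher stayed above 0, while the 20 called lower spread from -1.21 to 0.36.

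With R1881, MKI67 was at 58.2 to 72.5 CPM in the 24 h control, 63.9 to 72.9 CPM with Senexin B, 93.2 to 115 CPM in the 72 h control and 121 to 164 CPM with SNX631. Its effects were 0.45 under SNX631 and 0.019 under Senexin B, and the difference was 0.43 (edgeR FDR 0.0196). RELN was at 7.63 to 10.0 CPM in the 24 h control and 15.8 to 18.2 CPM with Senexin B, and the 72 h groups overlapped at 5.49 to 6.57 CPM. Its difference was -0.99 (edgeR FDR 0.000106), close to the value without R1881. SLC6A9 behaved otherwise. It was at 9.29 to 13.4 CPM in the 24 h control and 14.9 to 17.1 CPM with Senexin B, and at 8.76 to 10.5 CPM in the 72 h control and 16.2 to 17.6 CPM with SNX631. Here it rose under both inhibitors, and the difference was 0.32 ± 0.14 (edgeR FDR 0.184). MTHFD1L likewise rose by 0.66 under SNX631 and 0.68 under Senexin B, with a difference of -0.013 ± 0.10 (edgeR FDR 0.962).

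The change of the contrast with R1881 was tested in 1 fit of all 28 libraries, an alternative chosen after seeing the data. It was called for 9 of 16672 genes, 6 higher and 3 lower. SLC6A9 (1.28 ± 0.20, edgeR FDR 0.000108), SLC7A11 (0.83 ± 0.14, edgeR FDR 0.00058) and MTHFD1L (0.71 ± 0.14, edgeR FDR 0.00597) were the only called ones among the 21 lower genes, and none of the 59 higher genes was called, although 9 of them passed an FDR of 0.05. The higher and lower genes were chosen by their values without R1881, which also enter this test. That choice favours a change toward 0, so results among them do not by themselves measure a change with R1881. PSAT1, an enzyme of serine synthesis in the ATF4 list, was also called, with differences of -0.26 without and 0.39 with R1881. In the ATF4 list 8 of 30 members passed an FDR of 0.05 in this test, beside 0.906% of all genes. In the cell cycle list none of 60 did, a share that is near this background.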

How the data were processed

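A single table of expected counts, not scaled to depth, was deposited by the authors, in which a read on several genes or places was shared as fractions (16.9% of values above 0 had a fractional part). The submitters' processing notes name FastQC, cutadapt 2.8, STAR 2.7.2b, featureCounts and Subread 2.0.3 and the builds GRCh38.p13 and GRCm39. The annotation release, the build's role and the strand setting are not given in the sources used here, and the kit is directional per the labels. Of its entries, 61815 are human genes, and the 2 others, with 0 counts, were left out. Sharing reads as fractions affects overlapping genes and copies of a gene.

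Counts were rounded to whole numbers. The 14 libraries were fitted with 4 group means in R 4.3.3 by the quasi-likelihood method of edgeR 4.0.16 with TMM factors, after filterByExpr had kept genes by its limits of 10 counts per library and 15 in total, and FDR is the Benjamini-Hochberg adjusted p over all genes tested. SE is a Wald SE from that test and intervals are 1.96 SE either side. CPM uses TMM-scaled totals, except for the cell type markers, which use the unscaled totals over all genes. The R1881 libraries were fitted apart. The script was tested on simulated data before use. The replicate numbers of vehicle and inhibitor libraries were checked for pairing over genes above 10 CPM, and the deviations of same-numbered libraries from their group means correlated by -0.035 to 0.087, so the numbers were not taken as pairs.

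The members and gene lists were chosen with earlier results of these data known, and the lists come from general knowledge. Named genes have a symbol and reach 1 CPM as the mean of their highest group. They are the 8 highest and 8 lowest differences among called genes, up to 4 called for the difference and for both inhibitors in the same direction (1 was found), the 4 largest differences with an FDR under 0.05 for the inhibitors in opposite directions, 5 genes changed alike with the smallest bound, the 7 module genes and all called list members, 49 in all, of which 1 is not reported here. Genes outside this rule are said to be chosen after seeing values, or are list examples. Alternatives were scaling by DESeq2 size factors or by library totals, DESeq2 1.42.0 as the test (Wald), other filters, other limits, a replicate block, all 28 libraries in the fit and leaving out each library. Gene positions are those of GENCODE 29, in which 79 of the 80 called genes had an entry. Figures were drawn with matplotlib 3.10.9.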

Additional observations from a re-analysis of the deposited data

Results flagged for a closer look

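The effect of the 2 inhibitors without R1881 differed, by the test of the difference itself, for 80 genes, and the change of that difference with R1881 was called for 9 genes. Inhibitor, dose, time and experiment cannot be told apart in the first, and the R1881 dose of the experiments adds to these in the second.

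Among 98 groups of 4 libraries of the named genes, 2 held a library far from the other 3, where chance gives about 1 in 20. MED13 was at 191 CPM in replicate 4 of the 72 h vehicle, against 177 to 178 CPM in its other libraries. TYMS was at 28.8 CPM in replicate 1 of the 72 h vehicle, against 30.9 to 31.0 CPM in the others.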

How the results depend on the processing

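The difference without R1881 called 80 genes. It called 83 with DESeq2 size factors, 87 with library totals, 64 with DESeq2 and 110 without a filter, and 51 after thinning, where 42 of the 80 were called again. An FDR under 0.05 with no limit on size gave 908 genes for the difference, 5992 for the SNX631 effect, 6126 for the Senexin B effect and 815 for the difference with R1881. The test of edgeR against a 1.5-fold change gave 0, 274, 144 and 0 genes in that order, with 136, 655, 478 and 118 at an unadjusted p under 0.05. The difference with R1881, 28 genes, became 13 with DESeq2 and 46 without a filter. Library totals moved the Senexin B calls from 337 up and 289 down to 273 up and 355 down.

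Leaving out each library gave 55 (without replicate 3 of the 24 h vehicle, 44 of the 80 called again) to 83 genes for the difference, 714 to 794 for SNX631, 549 to 631 for Senexin B and 16 to 40 for the difference with R1881. The lower of the last values came without replicate 1 of the 24 h group with R1881 and Senexin B and the higher without replicate 2. Members of the cell cycle list that were higher at an FDR under 0.05 numbered 24 to 35 and members of the ATF4 list that were lower 15 to 20. The cause of these changes was not tested. The replicate block gave 81 called genes, 69 of them among the 80, and same-numbered libraries were each other's best match in 3 of 7 cases.

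For the 36 called named genes no alternative fit reversed a difference. Of 288 values under other settings 42 lost the call, and of 504 values without a library 127 did, while 10 genes kept it throughout. Reversals occurred in genes with differences near 0. MAP1B became 0.0078 with library totals, USP25 0.0078 with library totals and 0.016 after thinning, GMPS -0.0052 and CCNC -0.02 after thinning. Without a library the values ranged from -0.036 to 0.028 for MAP1B, -0.014 to 0.034 for ABHD10, -0.022 to 0.019 for USP25, -0.0067 to 0.034 for GMPS, -0.019 to 0.055 for CCNC, -0.005 to 0.076 for MED13L, -0.017 to 0.041 for MED13 and -0.00011 to 0.065 for MED12.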
